A study of Mus musculus with 14 samples.

Results

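The 39 genes described here encode ribosome biogenesis factors, the nucleolar proteins that make and assemble ribosomal subunits. The list was fixed by name, and its members were chosen with earlier results of these data known. It holds 7 factors of RNA polymerase I transcription, 4 of box C/D and 5 of box H/ACA small nucleolar ribonucleoproteins (snoRNPs), 10 of small subunit and 11 of large subunit assembly, and the 2 abundant nucleolar proteins Npm1 and Ncl. All 39 were found among the 55487 genes of the count tables, and all 39 had enough counts to be tested in every comparison. The lowest count of any of them in any library was 65 read pairs.

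Ribosome production starts in the nucleolus, where RNA polymerase I transcribes the ribosomal DNA. Box C/D and box H/ACA snoRNPs methylate and pseudouridylate the precursor RNA, and large protein assemblies then fold, cut and export the subunits. The pathway is costly, is a classic target of the transcription factor Myc, and is known to run at a low rate in resting blood stem cells and at a high rate in dividing progenitors.

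RNA was measured in LSK (Lin-Sca1+c-kit+) cells, the fraction of mouse bone marrow that holds both stem cells and multipotent progenitors. It was also measured in LK (Lin-c-kit+) cells, the more mature progenitor fraction. Both were sorted from lethally irradiated C57BL/6 mice that had been transplanted with marrow of pI-pC-induced Mx1Cre; Jak2VF/+ donors, so the blood cells of every mouse, PBS controls included, were made to carry a heterozygous Jak2V617F allele; Mx1Cre is an interferon-inducible Cre and is not limited to blood cells. The recipients received PBS (3 libraries of LSK and 3 of LK cells) or IL-1β (2 libraries of each) at 0.5 µg per dose by the methods of the study, with 3 doses per week over 16 weeks. Mesenchymal stromal cells (MSC) were grown for 21 days from the marrow of wild-type C57BL/6 mice and exposed to PBS (2 libraries) or to 5 ng/ml IL-1β (2 libraries) over 72 hours. The labels do not state the age of these mice or whether libraries of 1 group came from separate animals or cultures, so the p-values measure only the spread between these libraries. The comparisons asked whether IL-1β changed the factors within each population and whether LSK cells differed from LK cells.

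Libraries held 12172400 to 18544346 counted read pairs in LSK and LK cells with PBS, 4393233 to 8641124 with IL-1β, and 5834909 to 30871055 in MSC. Every IL-1β library of LSK and LK cells was shallower than every PBS library, so depth and treatment cannot be told apart there. LSK libraries held 11 of 11 stem and progenitor markers, with a summed level of 1828 to 2404 CPM (library-scaled counts, TMM-normalized) with PBS, and of 1169 and 1324 CPM with IL-1β. The MSC libraries went against their label: 18 macrophage markers summed to 21070 to 44140 CPM and 17 mesenchymal markers to 1751 to 4890 CPM. Lyz2 (4803 to 20800 CPM) and Csf1r (683 to 2268 CPM) were both high, while the mesenchymal genes Col1a1 (406 to 1311 CPM) and Cxcl12 (70.0 to 305 CPM) were also present and Lepr was at or near 0. The name MSC is kept below for the cultures as labelled. In bulk samples fewer cells of a type and less RNA per cell cannot be told apart.

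The factors differed widely in level. Per kilobase of gene model, Npm1 was the highest in MSC with PBS, at 149 CPM per kb ± 2.01 (SD, n = 2), while Rrp1b, a nucleolar partner of large subunit assembly, was the lowest at 1.47 ± 0.0905. In LSK cells with PBS the range was 8.10 to 578 CPM per kb with a median of 38.6, and in LK cells with PBS it was 13.8 to 891 with a median of 46.3. Polr1a, Utp20, Rrp1b and Wdr12 were the 4 lowest per kilobase in LK cells with PBS, with neighbouring means of 14.9, 14.1, 14.9 and 13.8 CPM per kb that lay within about 1 SD of each other (SD 0.603 to 1.73, n = 3).

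All factors together took 0.939% to 1.08% of the counts in LSK libraries with PBS and 1.37% and 1.48% with IL-1β, which did not overlap. In LK cells they took 1.31% to 1.41% with PBS, and 1.20% and 1.39% with IL-1β, which overlapped. In MSC they took 0.231% and 0.245% in the PBS libraries, against 0.188% and 0.196% after IL-1β. Npm1 and Ncl alone made up 35.7% to 44.6% of the summed CPM of the factors in LSK cells with PBS, and 47.2% and 47.8% with IL-1β.

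**Figure D1:**
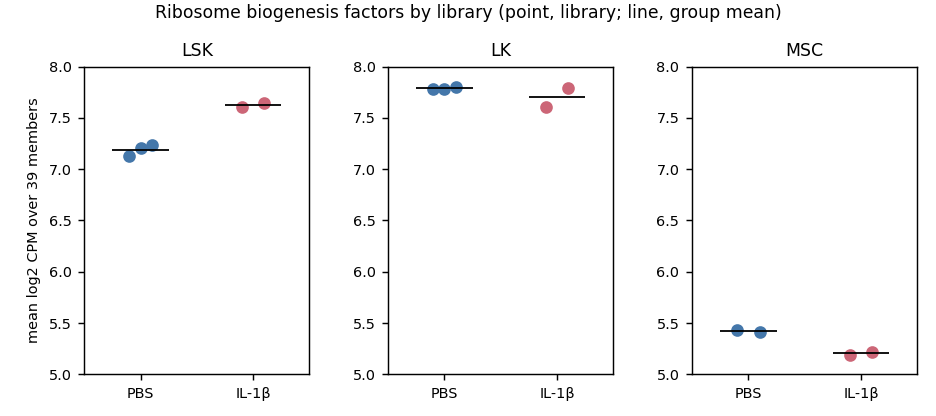
Mean log2 CPM over the 39 factors (vertical axis) in each library, by population and treatment; points are libraries and lines are group means. LSK libraries sat at 7.13 to 7.24 with PBS and at 7.60 and 7.64 with IL-1β, LK libraries overlapped between treatments (at least 7.78 with PBS, 7.61 and 7.79 with IL-1β), and MSC libraries were lower with IL-1β (5.19 and 5.22) than with PBS (5.41 and 5.43); MSC levels were normalized separately.

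In LSK cells most factors stood higher with IL-1β, but none passed the test. Of the 39, 35 had a positive log2 fold change (IL-1β over PBS), with a median of 0.48 against -0.06 over all 13132 genes tested, and a range from -0.75 to 1.11. A gene was called where the edgeR quasi-likelihood test gave a Benjamini-Hochberg adjusted p under 0.05 over all genes and its fold change exceeded 0.5 on the log2 scale. The count was 0 factors, where 0.32% of all genes were called higher and 0.312% lower. At an unadjusted p under 0.05, 14 factors were higher and 0 lower, among 1052 genes higher and 1379 lower. DESeq2 called 5 factors higher (Nhp2, Utp18, Nop16, Ebna1bp2 and Npm1; 2.82% of all genes), with adjusted p-values of 0.0131 to 0.0439. In 26 factors (66.7%) both IL-1β libraries lay above all 3 PBS libraries, against 16.7% of all genes, and in 0 both lay below, against 22.8% of all genes.

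The factors with the smallest adjusted p in LSK cells belonged to subunit assembly. Utp18, a protein of the small subunit processome, measured 71.6, 75.9 and 74.1 CPM with PBS and 137 and 130 CPM with IL-1β. The PBS libraries lay close together and the IL-1β libraries well above them (log2 fold change 0.89 ± 0.22 SE, adjusted p = 0.0998 by edgeR). Nop16, a factor of early large subunit assembly, measured 70.2, 63.5 and 85.8 CPM with PBS and 119 and 175 CPM with IL-1β. The groups did not overlap (1.04 ± 0.26, adjusted p = 0.103 by edgeR). Ebna1bp2, which acts with the large subunit precursors, measured 103, 219 and 128 CPM with PBS and 315 and 319 CPM with IL-1β. PBS replicate 2 lay nearest to the IL-1β libraries (1.11 ± 0.33, adjusted p = 0.139 by edgeR), and without it the log2 fold change was 1.52 and Ebna1bp2 was called, as 1 of 3 factors.

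The 2 abundant nucleolar proteins followed the same direction. Npm1 (nucleophosmin), a histone and ribosomal protein chaperone, measured 1280, 1729 and 1608 CPM with PBS and 2467 and 3331 CPM with IL-1β (log2 fold change 0.95 ± 0.29, adjusted p = 0.145 by edgeR). Ncl (nucleolin), which binds the ribosomal RNA precursor, measured 1808, 3206 and 1987 CPM with PBS and 4746 and 3624 CPM with IL-1β (0.88 ± 0.34, adjusted p = 0.217). In both genes all IL-1β libraries lay above all PBS libraries, and for Ncl PBS replicate 2 came close. Npm1 has processed pseudogenes that can share its reads, and the counting dropped read pairs that map to several places, so its level is uncertain.

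Among the box C/D proteins, Fbl (fibrillarin), the methyltransferase of the particle, measured 312, 731 and 388 CPM with PBS and 813 and 810 CPM with IL-1β. The spread among the PBS libraries was wide (log2 fold change 0.80 ± 0.36, adjusted p = 0.278 by edgeR), and without PBS replicate 2 the value was 1.28 and passed the test. Nop56 (0.38), Nop58 (0.31) and Rrp9 (0.77), the other proteins of this particle and of the U3 snoRNP, had positive log2 fold changes, and in all 4 box C/D factors both IL-1β libraries lay above the PBS libraries. Of the box H/ACA proteins, the pseudouridine synthase Dkc1 (0.55), its partners Nhp2 (1.04) and Gar1 (0.86), and the snoRNP chaperone Nolc1 (0.57) were likewise above PBS in both libraries. The fourth particle protein, Nop10, went the other way: it measured 60.1, 29.2 and 97.0 CPM with PBS and 29.3 and 42.9 CPM with IL-1β, so the groups overlapped (-0.75 ± 0.45, adjusted p = 0.396 by edgeR).

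The factors of RNA polymerase I transcription had the lowest median of the groups, 0.13, with 4 of 7 positive and 2 of 7 (Polr1b and Ubtf) above PBS in both libraries. Polr1a, the largest subunit of the enzyme, measured 146, 106 and 105 CPM with PBS and 139 and 64.5 CPM with IL-1β. The IL-1β libraries lay on both sides of the lowest PBS library (-0.18 ± 0.34, adjusted p = 0.809 by edgeR), and without IL-1β replicate 2 the log2 fold change was 0.29. Rrn3, which recruits the polymerase, Tcof1 (treacle) and Polr1a were the 3 of this group with a negative value. The median was 0.27 over the 10 small subunit factors, with all 10 positive and 5 above PBS in both libraries. It was 0.55 over the 11 large subunit factors, with all 11 positive and 9 above PBS in both libraries, among them Bop1 (0.70) and Wdr12 (0.55). These are partners in the complex named after Pes1, Bop1 and Wdr12, while Pes1 (0.36) itself overlapped.

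**Figure D2:**
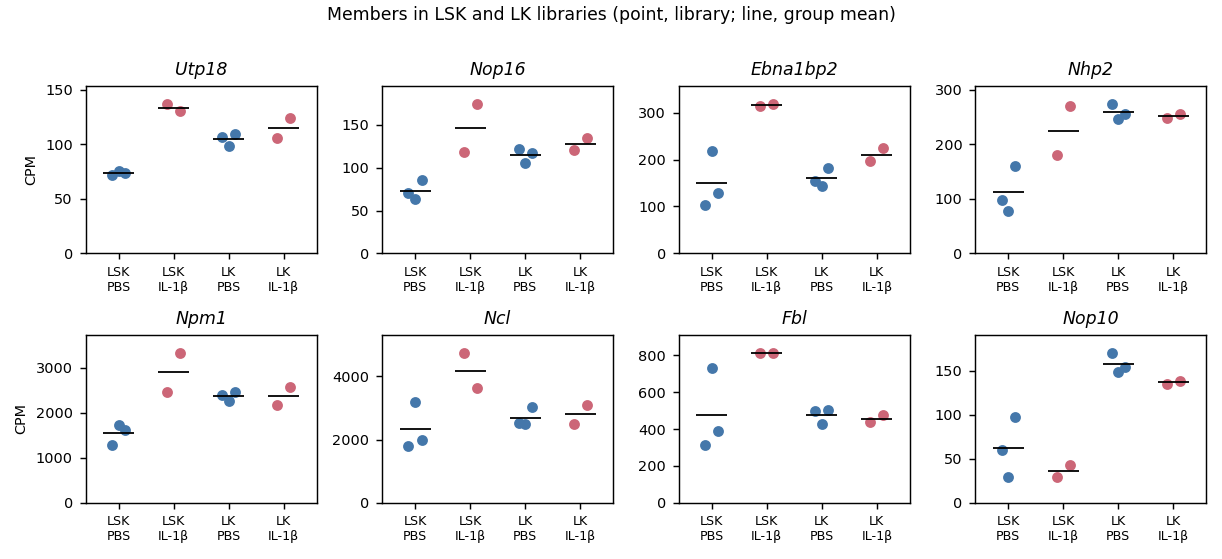
CPM (vertical axes, from 0) of 8 factors in LSK and LK libraries by treatment; points are libraries and lines are group means. In LSK cells Utp18, Nop16, Ebna1bp2, Nhp2, Npm1, Ncl and Fbl lay above PBS in both IL-1β libraries, while Nop10 overlapped; the LK groups of these genes overlapped except for Ebna1bp2, which was higher, and Nop10, which was lower with IL-1β.

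Gene length moved with these values. Across the 39 factors, Spearman's rho between gene length and the log2 fold change in LSK cells was -0.43, and across all 13132 genes tested it was -0.30 (a description; the genes share the same libraries). The 20 shorter factors, up to a median length of 4121 bases, had a median log2 fold change of 0.71 and the 19 longer ones of 0.27. Length also moved within a treatment: between the 2 IL-1β libraries of LSK cells rho was -0.62 over the factors, with longer factors such as Polr1a, Heatr1 and Utp20 lower and shorter ones such as Nop16 and Nip7 higher in replicate 2, the shallowest library. Between PBS replicate 3, the deepest LSK library, and PBS replicate 1 rho was -0.60. In LK cells rho between length and the IL-1β fold change was -0.01. With the trend of all genes over length taken off, an alternative chosen after seeing the data, the median in LSK cells was 0.55 and 37 of 39 factors were positive. The trend was a running median, so taking it off also removed the median of all genes (-0.06), and these values do not measure length alone.

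Markers of other cell types also moved in the LSK libraries. Of 13 neutrophil granule markers tested (14 listed), 4 were called higher with IL-1β with a list median of 3.32, and they summed to 2291 to 3303 CPM in the PBS libraries, against 9852 and 11730 CPM after IL-1β; 2 of the 14 were at 0 in IL-1β replicate 2 and up to 3 in PBS libraries. Of the 11 stem and progenitor markers, 3 were called lower, with a list median of -1.01, and none was at 0. The part of these cells in the values of the factors was not tested. Myc was at 422, 193 and 397 CPM with PBS and at 257 and 304 CPM with IL-1β, with groups that overlapped. In LK cells Myc was at 387, 331 and 467 CPM with PBS and at 339 and 308 CPM with IL-1β, which also overlapped. Of 10 genes of the Myc network tested in each population, 1 was called lower and 0 higher in LSK cells. In LK cells 2 were called higher and 0 lower.

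A list of 135 further genes of the pathway gave a similar picture in LSK cells: 0 were called higher and 0 lower by edgeR, 116 had a positive log2 fold change, 32 were higher and 1 was lower at an unadjusted p under 0.05, and the median was 0.40. The highest values were those of Npm3 (1.28), a paralog of Npm1, of Mphosph6 (1.21), a cofactor of the RNA exosome, and of Mrto4 (1.18), a large subunit assembly factor. The lowest were those of Mdn1 (-1.17), the very long AAA ATPase that remodels large subunit precursors, of Utp25 (-0.50) and of Nol11 (-0.35). The 79 cytosolic ribosomal protein genes had a median of 0.35, with 0 called in either direction and 4 higher and 0 lower at an unadjusted p under 0.05, and the 29 cell cycle genes a median of 0.26, with 0 called in either direction, 3 higher and 1 lower at an unadjusted p under 0.05.

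Since Myc and related factors bind the E-box CACGTG, the promoters of the factors were searched for these letters (the motif is its own reverse complement, so both strands were covered). RefSeq promoters on GRCm38.p6 were matched by symbol for 34 of the 39. In the 250 bases before the start site the motif stood in 3 of 34 factors (8.82%), in 10 of 105 further pathway genes (9.52%), in 9.90% of 9729 genes tested in LSK cells and in 6.86% of 27025 genes with a promoter. Those 3 factors are shown because Utp18 had the smallest adjusted p in LSK cells, and Nop2, the methyltransferase of the large subunit RNA, and Rrn3 hold the same letters with other responses. Capitals mark the motif, and each stretch reads 5′ to 3′ on the strand of its gene.
Utp18, chr11:93885767-93885806, minus strand: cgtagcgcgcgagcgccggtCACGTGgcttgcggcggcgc
Nop2, chr6:125131803-125131848, plus strand: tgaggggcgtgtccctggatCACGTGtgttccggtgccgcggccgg
Rrn3, chr16:13780464-13780509, plus strand: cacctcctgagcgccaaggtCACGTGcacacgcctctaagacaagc
Rrn3, chr16:13780631-13780676, plus strand: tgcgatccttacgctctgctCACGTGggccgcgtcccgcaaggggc
The motif of Utp18 began 20 bases before the start site and that of Nop2 60 bases before it, and those of Rrn3 began 215 and 48 bases before it. The 3 genes had LSK log2 fold changes of 0.89, 0.54 and -0.04. With the 50 bases after the start site included, the motif stood in 8 of 34 factors (23.5%), in 20 of 105 further pathway genes (19.0%) and in 11.8% of the genes tested in LSK cells. The median LSK log2 fold change was 0.54 over the 3 factors with the motif before the start site and 0.38 over the 31 without it, and it was 0.32 over the 8 factors with the motif in that longer window and 0.44 over the 26 without it.

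In LK cells the factors stood close to the PBS level with IL-1β, and none was called. The median log2 fold change was -0.06 against -0.03 over all 12835 genes tested, 9 factors were positive and 30 negative, and the values ran from -0.46 to 0.40. By edgeR 0 factors were called, where 6.77% of all genes were called higher and 2.57% lower, and 1 factor was higher and 3 were lower at an unadjusted p under 0.05, where 1795 of the 12835 genes tested were higher and 1381 lower, larger shares than among the factors. DESeq2 and limma-voom called 0 as well. In 12 factors (30.8%) both IL-1β libraries lay below all PBS libraries, against 22.4% of all genes, and in 2 (5.13%), Bop1 and Ebna1bp2, both lay above, against 23.4%.

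Nob1, the endonuclease that makes the mature end of the small subunit RNA, had the smallest adjusted p in LK cells. It measured 116, 125 and 115 CPM with PBS and 82.4 and 90.6 CPM with IL-1β, so the groups stood apart; its log2 fold change of -0.46 ± 0.10 had an adjusted p of 0.0274 by edgeR but did not reach the fold threshold. Nop56 measured 432, 488 and 403 CPM with PBS and 320 and 358 CPM with IL-1β (-0.38 ± 0.12, adjusted p = 0.0735 by edgeR). Ebna1bp2 again stood higher, at 154, 145 and 181 CPM with PBS and 197 and 224 CPM with IL-1β (0.40 ± 0.12, adjusted p = 0.0760 by edgeR). Without PBS replicate 3 its log2 fold change was 0.50 and it was the 1 factor called.

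The most abundant factors were near 0 in LK cells. Npm1 measured 2402, 2251 and 2472 CPM with PBS and 2183 and 2576 CPM with IL-1β (0.00 ± 0.12, adjusted p = 0.986 by edgeR), and Ncl 2520, 2509 and 3019 CPM with PBS and 2506 and 3100 CPM with IL-1β (0.06 ± 0.14, adjusted p = 0.819). Fbl (-0.06 ± 0.11) and Polr1a (-0.21 ± 0.10) had adjusted p-values of 0.764 and 0.249. The sign of Npm1 changed with upper-quartile factors, with no filter on low counts and without PBS replicate 2 or IL-1β replicate 2, and that of Ncl without IL-1β replicate 2. Of the 135 further pathway genes, 0 were called, 44 were positive and 91 negative; Mak16, a large subunit factor, had the smallest adjusted p among those with the largest changes (-0.42 ± 0.09, adjusted p = 0.0257 by edgeR) and did not reach the fold threshold. Markers of other cells moved in LK cells too, and their part in these values was not tested. Of 13 neutrophil granule markers tested, 8 were called higher, their sum being 4494 to 9697 CPM with PBS, and 18390 and 21550 CPM with IL-1β, with up to 2 of the 14 listed at 0 in a library. Of 14 erythroid markers, 6 were called lower, their sum being 5326 to 7106 CPM with PBS, and 3358 and 3835 CPM with IL-1β, with none at 0.

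**Figure D3:**
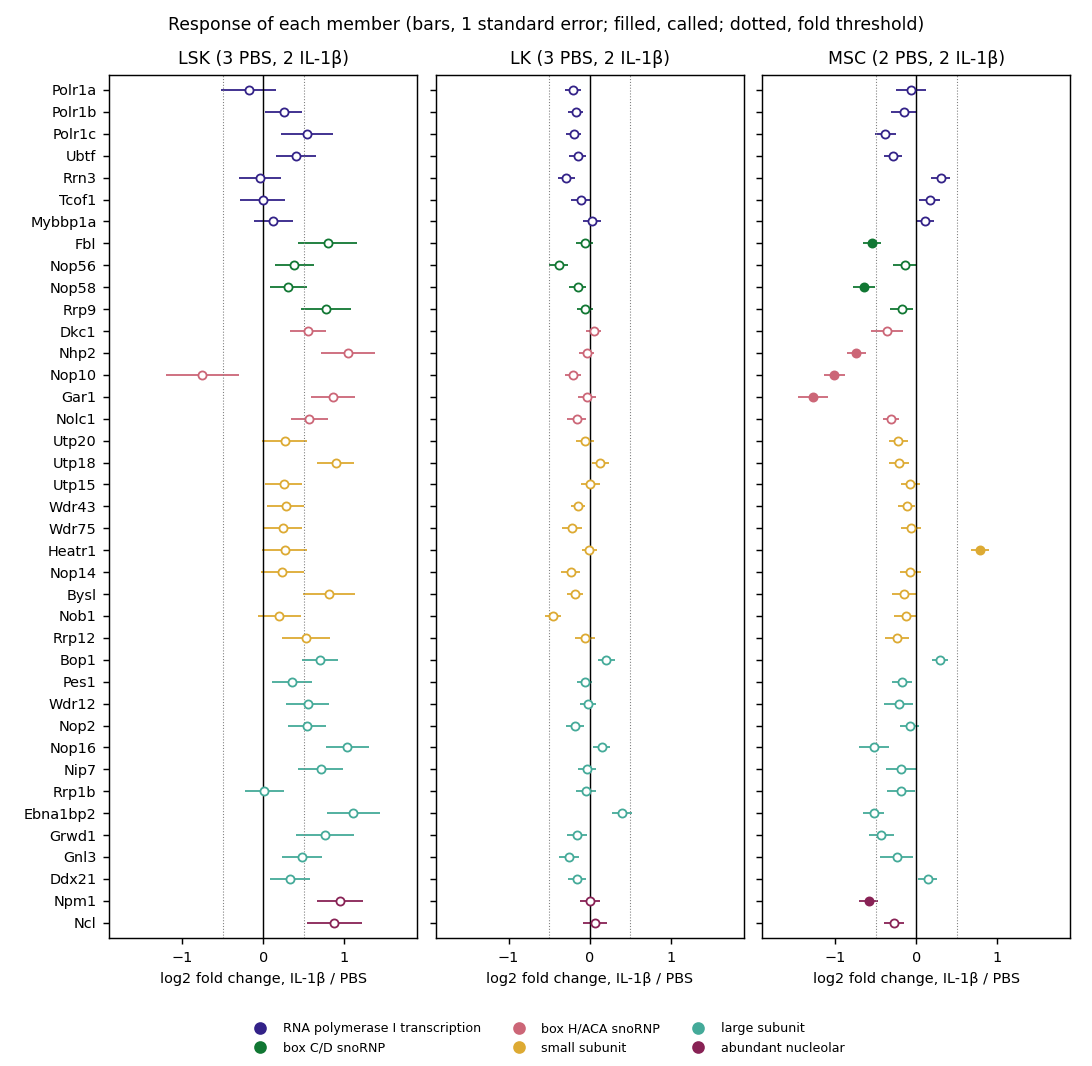
Log2 fold change (horizontal axes, IL-1β over PBS) with 1 standard error for each of the 39 factors, coloured by role, in LSK, LK and MSC libraries; filled points passed the test and dotted lines mark the fold threshold of 0.5. Values in LSK cells ran from -0.75 to 1.11 with none filled, those in LK cells from -0.46 to 0.40 with none filled, and in MSC 1 was filled on the right and 6 on the left.

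An interaction term fitted to the 10 LSK and LK libraries gave the IL-1β response of LSK cells minus that of LK cells. This difference was positive for 37 of the 39 factors, with a median of 0.53 against -0.12 over all 13839 genes tested. It also moved with gene length, with a Spearman's rho of -0.52 over the factors and -0.25 over all genes (a description). The median difference was 0.71 over the 20 shorter factors and 0.39 over the 19 longer ones. By edgeR 0 factors were called, where 0.00723% of all genes were called higher and 0.0217% lower, and 13 factors were higher and 0 lower at an unadjusted p under 0.05, where 4.68% of all genes were higher and 9.54% lower. DESeq2 called Utp18 and Npm1 higher (0.943% of all genes). Utp18 had a difference of 0.73 ± 0.22 (adjusted p = 0.207 by edgeR), Npm1 of 0.91 ± 0.29 (adjusted p = 0.226) and Nop16 of 0.85 ± 0.29 (adjusted p = 0.241). Nop10 had the lowest difference, -0.59 ± 0.52 (adjusted p = 0.636). Ncl (0.78 ± 0.37), Fbl (0.83 ± 0.41) and Polr1a (-0.01 ± 0.38) did not pass either (adjusted p = 0.360, 0.378 and 0.996). Without LSK PBS replicate 2, 3 factors were called, Fbl among them.

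With PBS alone, most factors were lower in LSK than in LK cells. All 39 log2 fold changes (LSK over LK) were negative, with a median of -0.61 against 0.04 over all 12737 genes tested. By edgeR 26 factors (66.7%) were called lower and 0 higher, where 12.8% of all genes were called lower and 18.4% higher. DESeq2 and limma-voom likewise called 0 higher, and at an unadjusted p under 0.05, 30 were lower and 0 higher, where 19.2% of all genes were lower and 24.0% higher. All 5 box H/ACA factors were called, 3 of 4 box C/D factors, 8 of 11 large subunit, 5 of 10 small subunit and 4 of 7 factors of RNA polymerase I transcription, and Npm1. Without LK PBS replicate 1 the count was 13. With the replicate number as a block, which paired LSK with LK libraries, the count was 25.

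The largest differences were in small subunit and box H/ACA factors. Bysl (bystin), which acts late in small subunit assembly, measured 53.8, 28.4 and 57.3 CPM in LSK cells and 126, 120 and 118 CPM in LK cells. The ranges stood far apart (-1.41 ± 0.25, adjusted p = 0.00373 by edgeR). Nop10 measured 60.1, 29.2 and 97.0 CPM in LSK cells and 170, 149 and 154 CPM in LK cells (-1.38 ± 0.36, adjusted p = 0.0193). It lost its call with no filter on low counts and without LK PBS replicate 1, LK PBS replicate 2 or LSK PBS replicate 1. Nhp2 measured 98.4, 77.3 and 160 CPM in LSK cells and 275, 247 and 256 CPM in LK cells (-1.25 ± 0.25, adjusted p = 0.00657). Nolc1 measured 240, 226 and 243 CPM in LSK cells and 438, 460 and 505 CPM in LK cells (-1.02 ± 0.14, adjusted p = 0.00133). In each of these 4 genes every LSK library lay below every LK library. Nop10 (1109 bases) and Nhp2 (1146 bases) are the shortest of the factors, while Bysl (3854 bases) and Nolc1 (3971 bases) are longer. Spearman's rho between gene length and this log2 fold change was 0.285 over the factors and 0.18 over all genes. The part of role and of gene length in these differences was not tested.

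The smallest differences that passed the test were in Mybbp1a, a nucleolar Myb-binding protein (-0.52 ± 0.15, adjusted p = 0.0281 by edgeR), Utp18 (-0.54 ± 0.14, adjusted p = 0.0188), Dkc1 (-0.58 ± 0.14, adjusted p = 0.0122) and Polr1b, which forms the active centre of RNA polymerase I with Polr1a (-0.58 ± 0.13, adjusted p = 0.00996). Mybbp1a measured 519, 490 and 500 CPM in LSK cells and 648, 709 and 753 CPM in LK cells, and with the replicate block its value was -0.51 and it was no longer called. Utp18 measured 71.6, 75.9 and 74.1 CPM in LSK cells and 107, 98.2 and 110 CPM in LK cells. Without LK PBS replicate 1, none of these 4 was called. Mybbp1a was also lost without LK PBS replicate 2 or 3, and Utp18 without LK PBS replicate 3.

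Of the abundant factors, Npm1 was lower in every LSK library than in every LK library (1280 to 1729 CPM against 2251 to 2472 CPM; -0.66 ± 0.19, adjusted p = 0.0274 by edgeR), a call lost without any 1 of the 3 LK libraries. Ddx21, a nucleolar helicase, measured 441 to 492 CPM in LSK cells and 669 to 738 CPM in LK cells (-0.59 ± 0.15, adjusted p = 0.0165), and was lost without LK PBS replicate 1 or 3. Polr1a measured 105 to 146 CPM in LSK cells and 166 to 185 CPM in LK cells (-0.61 ± 0.16, adjusted p = 0.0230), and was lost without LK PBS replicate 1 or 2 or LSK PBS replicate 3. Ncl (-0.23 ± 0.25, adjusted p = 0.517), Fbl (-0.03 ± 0.30, adjusted p = 0.949) and Heatr1 (-0.42 ± 0.17, adjusted p = 0.0865) did not pass; Fbl changed sign with upper-quartile factors and without LSK PBS replicate 1, LSK PBS replicate 3 or LK PBS replicate 3. For Ncl and Fbl the LSK libraries lay on both sides of the LK libraries, with replicate 2 the highest (3206 and 731 CPM). The 135 further pathway genes had a median of -0.44, with 42 called lower and 1 higher. The lowest were Dimt1 (-1.55), Pno1 (-1.19) and Lyar (-1.19), and the 1 called higher was Mdn1 (0.70, adjusted p = 0.0387 by edgeR).

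Cell types differ between these fractions by their gates. The 11 stem and progenitor markers were all called higher in LSK cells, and 13 of 14 erythroid markers were called lower, with summed levels of 953 to 1108 CPM in LSK libraries and 5326 to 7106 CPM in LK libraries, no marker of either list being at 0. The 29 cell cycle genes had a median of -0.38 with 7 called lower and 0 higher. The part of these differences in the values of the factors was not tested.

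**Figure D4:**
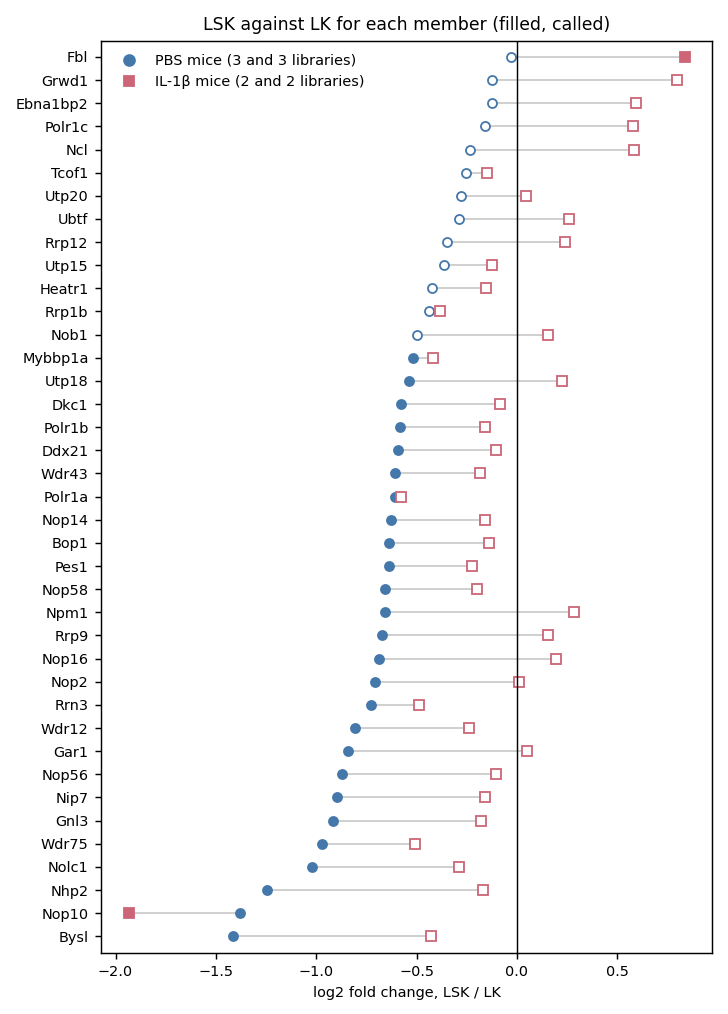
Log2 fold change of LSK over LK cells (horizontal axis) for each of the 39 factors, ordered by the value with PBS, with PBS (circles) and with IL-1β (squares); filled symbols passed the test. With PBS all 39 values were below 0 and 26 were filled, while with IL-1β 15 were above 0, and only Fbl (0.84) and Nop10 (-1.93) were filled.

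With IL-1β the values of LSK over LK cells lay nearer to 0. The median log2 fold change of LSK over LK cells was -0.14 against -0.02 over all 11743 genes tested, with 15 factors positive and 24 negative. By edgeR 1 factor was called higher (4.18% of all genes) and 1 lower (4.14% of all genes), with 5 higher and 2 lower at an unadjusted p under 0.05, where 14.4% of all genes were higher and 13.4% lower. In 33 of the 39 factors this value was smaller in size than with PBS, and of the 26 called with PBS only Nop10 was called lower here; the change itself was tested by the interaction, in which edgeR called 0 factors and DESeq2 called Utp18 and Npm1. Fbl measured 813 and 810 CPM in LSK cells and 436 and 475 CPM in LK cells (0.84 ± 0.17, adjusted p = 0.0329 by edgeR), and lost its call without either LK library. Nop10 measured 29.3 and 42.9 CPM in LSK cells and 135 and 139 CPM in LK cells (-1.93 ± 0.23, adjusted p = 0.00963). Npm1 (0.28 ± 0.21), Ncl (0.58 ± 0.22) and Polr1a (-0.58 ± 0.34) had adjusted p-values of 0.423, 0.145 and 0.322. Of the further pathway genes, 8 were called higher, 3 of them exosome subunits (Exosc3, Exosc5 and Exosc7), and 3 lower (Tma16, Utp4 and Nol11).

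In MSC 6 factors fell with IL-1β, 5 of them snoRNP proteins, and 1 rose. The median log2 fold change was -0.19 against 0.00 over all 13239 genes tested, with 33 factors negative and 6 positive. By edgeR 6 factors (15.4%) were called lower, where 4.31% of all genes were, and 1 factor (2.56%) was called higher, where 7.14% of all genes were. In 21 factors (53.8%) both IL-1β libraries lay below both PBS libraries, against 29.8% of all genes, and in 4 (10.3%) both lay above, against 31.3%. With either IL-1β library left out none of the 7 was called, the lone library then being assumed to vary like the PBS libraries.

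Of the 5 box H/ACA factors, 3 fell. These were Nop10 (1109 bases), Nhp2 (1146 bases) and Gar1 (1714 bases), which are the shortest genes among all the factors. The other factors called lower were longer: Npm1 (2665 bases), Fbl (4209 bases) and Nop58 (10758 bases). Heatr1, which was called higher, has 7828 bases. The part of role and of gene length in these calls was not tested. Gar1 measured 17.3 and 20.2 CPM with PBS and 8.39 and 7.06 CPM with IL-1β. Both treated libraries were under the lower PBS library by more than the spread of either group (-1.27 ± 0.18, adjusted p = 0.0143 by edgeR). Nop10 measured 64.0 and 70.1 CPM with PBS and 36.0 and 30.3 CPM with IL-1β (-1.01 ± 0.13, adjusted p = 0.0102), and Nhp2 measured 57.4 and 57.2 CPM with PBS and 31.8 and 37.2 CPM with IL-1β (-0.74 ± 0.12, adjusted p = 0.0198). Dkc1 (-0.36) and Nolc1 (-0.31) were also below PBS in both libraries and did not pass the test. Dkc1, Nhp2, Nop10 and Gar1 are also known as parts of the telomerase particle.

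Of the box C/D proteins, Fbl and Nop58 fell. Fbl measured 85.2 and 75.5 CPM with PBS and 53.1 and 56.6 CPM with IL-1β (-0.55 ± 0.11, adjusted p = 0.0341 by edgeR), and lost its call also without PBS replicate 2. Nop58 measured 47.7 and 39.5 CPM with PBS and 27.0 and 28.6 CPM with IL-1β (-0.65 ± 0.14, adjusted p = 0.0366). The values of Nop56 (-0.14) and Rrp9 (-0.18) did not pass. Npm1 fell from 394 and 402 CPM with PBS to 248 and 282 CPM with IL-1β (-0.59 ± 0.11, adjusted p = 0.0309), whereas Ncl, at 356 and 317 CPM with PBS and 260 and 296 CPM with IL-1β, did not pass (-0.28 ± 0.12, adjusted p = 0.2003).

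Heatr1, a large protein of the small subunit processome, was the 1 factor that rose. It measured 36.7 and 32.9 CPM with PBS and 60.1 and 59.5 CPM with IL-1β (0.79 ± 0.11, adjusted p = 0.0134 by edgeR). The other 9 small subunit factors were all negative, between -0.24 and -0.06, and none was called. No large subunit factor was called; Ebna1bp2 (-0.52 ± 0.13, adjusted p = 0.05002) was the nearest to the threshold. Polr1a measured 20.2 and 27.6 CPM with PBS and 24.5 and 21.7 CPM with IL-1β, with the treated libraries inside the PBS range (-0.06 ± 0.18, adjusted p = 0.863), and its sign turned without IL-1β replicate 2 or PBS replicate 3. Rrn3 (0.30) and Tcof1 (0.17) lay above PBS in both libraries and did not pass.

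**Figure D5:**
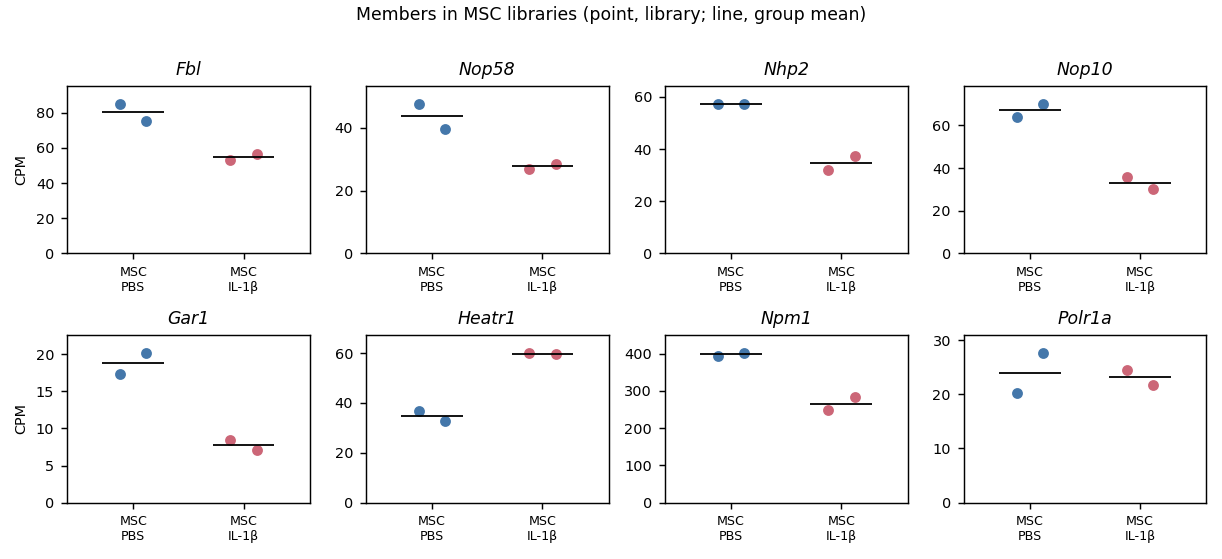
CPM (vertical axes, from 0) of 8 factors in the MSC libraries with PBS and with IL-1β; points are libraries and lines are group means. Fbl, Nop58, Nhp2, Nop10, Gar1 and Npm1 were lower in both IL-1β libraries, Heatr1 was higher in both, and Polr1a overlapped.

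Among the 135 further pathway genes in MSC, 8 were called lower and 1 higher, with a median of -0.18. The lowest were Rsl24d1 (-0.79 ± 0.12, adjusted p = 0.0174 by edgeR), a large subunit factor, Polr2f (-0.74 ± 0.13, adjusted p = 0.0223) and Polr2l (-0.73 ± 0.20, adjusted p = 0.0704), which are subunits shared by the RNA polymerases. Tma16, which binds large subunit precursors, was called higher (1.27 ± 0.15, adjusted p = 0.00865). Other lists moved beside the factors. Of 29 cell cycle genes, 13 were called lower and 0 higher, with all 29 negative and a median of -0.71; of 78 cytosolic ribosomal protein genes tested, 15 were called lower and 0 higher, with a median of -0.49. Of 17 macrophage markers tested, 9 were called higher and 0 lower, with 14 positive and 3 negative, and Cd163 was at or near 0 in every library. Their summed level was 21070 and 24970 CPM with PBS and 42940 and 44140 CPM with IL-1β. Lyz2 alone measured 4803 and 7133 CPM with PBS and 19870 and 20800 CPM with IL-1β. The median over the 18 listed markers was 669 and 728 CPM with PBS and 638 and 639 CPM with IL-1β. Of 15 mesenchymal markers tested, 3 were called higher and 0 lower. Myc was at 20.5 and 20.6 CPM with PBS and at 10.3 and 10.8 CPM with IL-1β, so both treated libraries lay below PBS. Of 9 genes of the Myc network tested, 1 was called lower, which by its fold change was Myc, and 0 higher. Their log2 fold changes ran from -0.97 to 0.44. Length moved with the fold change in the opposite sense to LSK cells, with a Spearman's rho of 0.35 over the 39 factors and 0.19 over all genes. The part of these changes in the values of the factors was not tested.

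The factors also host small RNA genes, which guide the snoRNPs. The annotation (GENCODE M21, on GRCm38) places 19 snoRNA genes inside 6 of the factors on the same strand: Nop58, Ncl, Nop56, Gnl3, Wdr43 and Dkc1. These libraries hardly held them: 3 of the 19 reached 10 counts in any library, and the highest count was 22. Within a population only Snord53, in Wdr43, could be tested between treatments, and in LK cells its log2 fold change was 0.10 (adjusted p = 0.968 by edgeR). It had 8, 16 and 3 counts in the LK libraries with PBS and 0 and 8 with IL-1β, too few to show that its level stayed the same.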

How the data were processed

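Libraries were made after ribosomal RNA depletion. The authors used fastp 0.20.0 for trimming, HISAT2 2.0.1 for alignment to GRCm38 and featureCounts 2.0.2 with Ensembl 100 genes for reverse-stranded counting of read pairs, per the file headers and the methods; the deposited values are raw counts, and multi-mapping read pairs were not counted. Groups came from the labels. An additional IL-1β-treated MSC library named in a file header was not analysed here.

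The quasi-likelihood test of edgeR 4.0.16 in R 4.3.3 (TMM factors, filterByExpr, two-sided) was run for each comparison, and p-values were adjusted over all genes tested by the Benjamini-Hochberg method. Calls used the thresholds of the study (adjusted p under 0.05, more than 0.5 in either direction on the log2 scale). The study applied them to DESeq2, which was run here as an alternative, so the edgeR calls do not repeat the test of the study. Standard errors were derived from the F statistic, and SDs are between libraries. CPM were scaled by TMM factors over the 10 LSK and LK libraries together and over the 4 MSC libraries separately. The scripts were tested on simulated data. Symbols were matched for 55141 of 55487 identifiers, and of 136 further pathway genes listed 135 were matched.

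Alternatives were each replicate left out, the replicate number as a block, DESeq2 1.42.0, limma-voom (limma 3.58.1), scaling by size factors or by upper quartiles, other filters on low counts (none, or at least 10 in at least 2 libraries) and no fold threshold. Deviations of same-numbered LSK and LK libraries from their group means correlated at 0.122, 0.108 and 0.379 with PBS. Those of LSK and LK libraries with unlike numbers correlated at -0.306 to 0.146, so the ranges overlapped. The labels do not say that same-numbered libraries share a mouse. Full statistics are given for called factors (with more than 8 called, the 4 largest and 4 smallest changes and the highest-level factor of each role), or, with none called, for the 3 smallest adjusted p-values and the largest opposite change, and always for Npm1, Ncl, Fbl and Polr1a. The members and gene lists were chosen with earlier results of these data known. Figures were drawn with matplotlib.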

Additional observations from a re-analysis of the deposited data

Results flagged for a closer look

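In 16 factors both IL-1β libraries lay above all PBS libraries in LSK cells and below all PBS libraries in MSC: Ubtf, Fbl, Nop58, Rrp9, Dkc1, Nhp2, Gar1, Nolc1, Utp18, Wdr43, Wdr75, Nop16, Ebna1bp2, Grwd1, Npm1 and Ncl. The same joint pattern held in 7.15% of the 11566 genes tested in both. They were set apart because every treated library moved one way in one cell population and the opposite way in the other, and the difference itself was not tested, since the cells, the exposure and the genotype all differ. In 6 factors, Polr1b, Nop56, Wdr43, Bysl, Nop2 and Gnl3, both IL-1β libraries lay above PBS in LSK cells and below PBS in LK cells, as in 1.61% of the 12264 genes tested in both. For these the interaction was tested and none passed (edgeR, adjusted p = 0.241 for Nop56 and 0.245 for Nop2), with 13 of all 39 factors higher and 0 lower at an unadjusted p under 0.05, where 4.68% of all genes were higher and 9.54% lower; DESeq2 called none of these 6. No group held 4 or more libraries, so single libraries could not be tested as outliers.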

How the results depend on the processing

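Of the counts and medians of the factors, 138 counts and 60 medians changed little under the alternatives, while 26 counts and 22 medians moved; of the fold changes of named factors 554 kept their direction and side of the threshold, 20 reversed, 20 came to pass it and 39 no longer did. In LSK cells 3 factors were called higher with no filter on low counts, 5 by DESeq2, 4 with the replicate number as a block and 0 to 3 with 1 library left out (3 without PBS replicate 2); the median was 0.55 with the length trend removed and 0.38 to 0.53 with 1 library left out. In LK cells 1 factor was lower with no fold threshold, 0 to 1 were higher with 1 library left out, and the median was -0.18 to -0.027. In MSC, leaving out 1 library gave 0 to 1 called higher, 0 to 8 lower and a median of -0.24 to -0.18; the median was -0.25 with upper-quartile factors, -0.15 with no filter and -0.25 with the length trend removed. For LSK over LK cells with PBS, 13 to 30 were called lower with 1 library left out, with a median of -0.68 to -0.60, which was -0.57 with upper-quartile factors and -0.67 with at least 10 counts in at least 2 libraries. With IL-1β, 2 were higher with DESeq2 size factors, upper-quartile factors, DESeq2, limma-voom or the replicate block, 3 with no filter, and 0 to 5 with 1 library left out, which gave 1 to 6 lower and a median of -0.24 to -0.034. For the difference of responses, 1 was called with no filter, 2 by DESeq2 and 0 to 3 with 1 library left out, and the median was 0.61 with upper-quartile factors, 0.64 with no filter, 0.62 with the length trend removed and 0.47 to 0.67 with 1 library left out.

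Directions turned for values near 0: Npm1 in LK cells (-0.038 with upper-quartile factors, -0.022 with no filter, -0.11 to 0.11 with 1 library left out), Ncl in LK cells (-0.089 to 0.20), Polr1a in LSK cells (-0.86 to 0.29) and in MSC (-0.23 to 0.22), Fbl in LSK over LK cells with PBS (0.0033 with upper-quartile factors, -0.49 to 0.15), and the Polr1a difference of responses (0.053 with size factors, 0.071 with upper-quartile factors, 0.11 with no filter, 0.048 by DESeq2, -0.64 to 0.43 with 1 library left out). The cause was not tested. The length trend, and a replicate block within treatment for the difference of responses (0 called, as without it), were chosen after seeing the data. Removing the length trend also removed the median shift of all genes. Numbers shared by treatments do not pair libraries, and in MSC no paired analysis was possible because the groups share 1 number; for LSK over LK cells with PBS the block lost the call of Mybbp1a. The biological coefficient of variation was 0.377 in LSK and 0.183 in LK cells, with 2 IL-1β libraries in each; the part of depth and spread in the number of calls was not tested.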

Other observations

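Among genes of the pathway outside the 39 factors, the RNA exosome, which trims precursor ends, had the highest list median in LSK cells: 0.74 over 13 genes, with 12 positive, 0 called in either direction by edgeR, and 4 higher and 0 lower at an unadjusted p under 0.05. In MSC the same 13 genes had a median of -0.39, and Exosc5 (-0.64) and Exosc8 (-0.60) were called lower. Mdn1 was the only further pathway gene called higher in LSK than in LK cells with PBS (0.70) and had the lowest log2 fold change with IL-1β in LSK cells (-1.17, adjusted p = 0.240 by edgeR). Both values rest on the same LSK libraries with PBS, so they are not independent, and Mdn1 was picked as the extreme of the list.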
